A study of Caenorhabditis elegans with 4 samples.

Results

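The 205 regions described here are the places on chromosome III of Caenorhabditis elegans where DNA bound by NHR-6 was called enriched over input. They are all entries of the deposited list whose chromosome name is III, and they make up 205 of its 1209 regions, or 205 of the 1208 on the 6 nuclear chromosomes. The other 1003 nuclear regions lie on chromosomes I, II, IV, V and X and serve for comparison. The rule used the chromosome name alone, so neither the strength nor the width of a region chose it.

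NHR-6 is the worm's receptor of the NR4A group of nuclear receptors. These proteins bind DNA through a pair of zinc fingers, and the mammalian members can bind as single molecules to an extended receptor element and act without a known natural ligand. In the worm, nhr-6 is known for its part in building the spermatheca, the chamber of the gonad where oocytes meet sperm, which has not yet formed in a larva of the second stage (L2). Whole larvae were used, so the regions pool all cells that carried the tagged receptor.

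The 4 libraries are 2 of ChIP DNA and 2 of input DNA, with replicate numbers 1 and 2 in each group. All come from hermaphrodite L2 larvae of strain OP90, grown at 20 °C and fixed with 2% formaldehyde. In every library the worms carry the mutation unc-119(ed3) on chromosome III and the transgene wgIs90, brought in by particle bombardment. The transgene holds unc-119(+), which rescues the mutation, and nhr-6 fused to the tag TY1::EGFP::3xFLAG. Per the labels the fusion protein is made where and when nhr-6 is normally expressed. Precipitation used a goat antibody against the green fluorescent protein (GFP) of the tag, and the untagged receptor made from the host's own nhr-6 gene is not its target. The stage follows the sample labels, although the protocol text mentions embryos. A gene table of the later assembly WBcel235 places both genes of the transgene, nhr-6 and unc-119, on chromosome III. Whether any of the 205 regions lies at either gene was not analysed here, since the positions below are of build WS180. For the same reason no gene is named for any region, and no DNA sequence is shown.

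For every region the list states its 2 boundaries and a q-value, the authors' own measure of significance over input. It holds no read count, no fold enrichment and no value per library, so no spread between replicates can be given and depth is unknown. A region is called strong below where its q-value was under 1e-05. That word refers to significance and not to how much receptor was bound. No precipitation from untagged worms is among the libraries, so enrichment unrelated to the receptor cannot be told apart from its binding.

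Chromosome III carried strong and weak regions alike, and its median strength was the highest of the 6 nuclear chromosomes, within overlapping intervals. Its q-values ran from 2.36e-16 to 0.00987. Of the 205 regions, 8 had q under 1e-10, which is 3.90% (95% Clopper-Pearson interval 1.70 to 7.54%), where all nuclear regions together gave 3.73%. A further 31 fell between 1e-10 and 1e-05, which brings the strong regions to 39, or 19.0% (13.9 to 25.1%). Over all nuclear regions the strong share was 16.1%, and over the other 5 chromosomes it was 15.5% (13.3 to 17.8%). With q under 0.001 there were 94 regions, 45.9% (38.9 to 52.9%), against 41.3% of all nuclear regions. The remaining 111 regions of III had q between 0.001 and 0.01. Each interval for III contains the value of the other chromosomes, and the difference itself was not tested.

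The median −log10 q was 2.90 on III (95% order-statistic interval 2.65 to 3.12) and 2.67 on the other nuclear chromosomes (2.64 to 2.77). By chromosome, this median was next highest on V, at 2.83, then I at 2.78, IV at 2.65, II at 2.62 and X at 2.50. The intervals of neighbours in this order overlapped. The largest −log10 q was 15.6 on III, 17.2 on I, 11.5 on II and 11.3 on IV, and only V (32.5) and X (32.3) went beyond these. Its regions made up 4 of the 20 smallest q-values of the nuclear list, 8 of the 50 smallest, 22 of the 100 smallest and 40 of the 200 smallest. These are 20.0%, 16.0%, 22.0% and 20.0% of each set, beside 16.97% of the whole nuclear list.

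**Figure D1:**
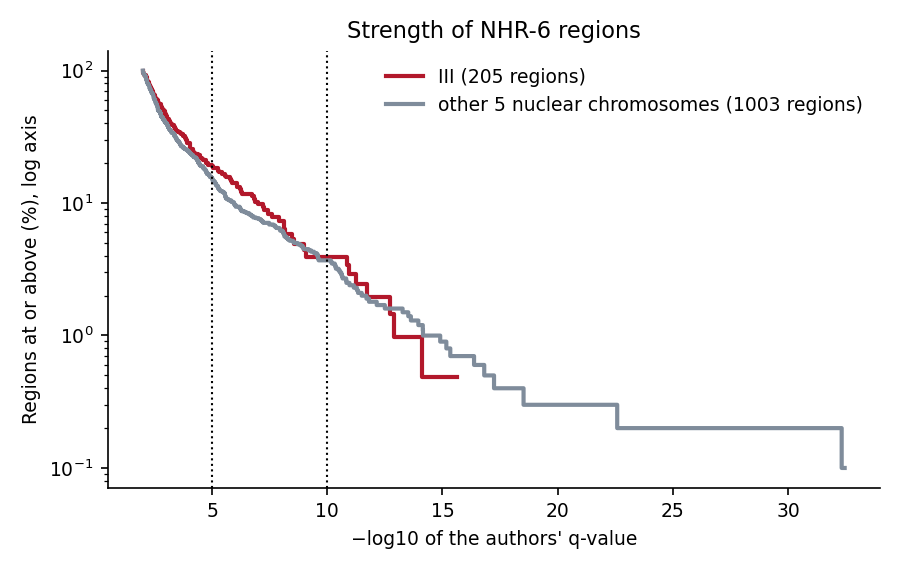
Share of regions at or above each value of −log10 of the authors' q-value (y axis in percent, log scale) for chromosome III (red, 205 regions) and the other 5 nuclear chromosomes (grey, 1003 regions), with dotted lines at q of 1e-05 and 1e-10. The red line lies slightly above the grey one at 1e-05 (19.0% and 15.5%), meets it at 1e-10 (3.90% and 3.69%) and ends at 15.6, while the grey line runs on to 32.5.

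The strongest region of III, at 10758988 to 10759829, was 842 bp wide (q = 2.36e-16) and ranked 8 in the whole list. Its nearest neighbour by midpoint was 11.1 kb away. Next came 1418700 to 1420397, of 1698 bp (q = 8.05e-15), which stood alone, with the nearest midpoint at 139 kb. The region at 9051224 to 9054209 was the second widest of the chromosome, with 2986 bp (q = 1.31e-13), and that at 12598311 to 12599116 measured 806 bp (q = 1.95e-13). The other 4 regions with q under 1e-10 differed in width. A narrow one of 371 bp lay at 7854418 to 7854788 (q = 1.96e-12). The wide one of 2180 bp at 64625 to 66804 (q = 5.58e-12) was the strongest near the left end. The region at 5678689 to 5679264 had 576 bp (q = 1.11e-11), and the one at 4475057 to 4476012 had 956 bp (q = 1.41e-11). These 8 regions were spread over the chromosome, each in a different one of its 10 equal segments.

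The next 12 regions, which complete the 20 strongest of III, had q from 8.30e-10 to 6.33e-08. The first was 333 bp wide, at 5018138 to 5018470, and was followed by one of 1508 bp at 10633279 to 10634786 (q = 9.95e-10). Next were 4281679 to 4282761 (1083 bp, q = 2.78e-09) and 12613958 to 12616315 (2358 bp, q = 3.26e-09). Adjoining regions at 1923489 to 1924561 and at 1924871 to 1925714 lay only 309 bp apart, with q of 7.47e-09 and 1.22e-08. The remaining 6 were at 3801271 (656 bp), 3867414 (327 bp), 9765040 (876 bp), 13070239 (702 bp), 11066664 (376 bp) and 9456089 (319 bp), each given by its start. Among the 20 strongest, widths ran from 319 to 2986 bp with a median of 843 bp, and 7 exceeded 1 kb. Cutting the chromosome into 3 equal parts, 8 of the 20 lay in the left part, 4 in the middle and 8 in the right. The parts held 54, 73 and 78 listed regions, and 13 strong regions each.

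Widths on III had a median of 362 bp (95% order-statistic interval 317 to 403 bp), with quartiles of 245 and 658 bp, against 373 bp (355 to 396 bp) on the other nuclear chromosomes. The regions covered 107 kb in all, or 0.775% of III, against 0.614% of the other chromosomes. Of the 205 regions, 22 were wider than 1 kb, 10.7% (6.85 to 15.8%), and the share elsewhere was 10.8% (8.92 to 12.9%). The widest region of III, at 3575211 to 3578603, spanned 3393 bp and was not among the 20 strongest (q = 1.43e-06). After that at 9051224 the next widest were 12613958 (2358 bp), 64625 (2180 bp) and 5939259 (2140 bp), by their starts. The last of these was weak for its width, with q = 0.000596.

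Weaker regions were narrower. On III the median width was 899 bp with q under 1e-10 (8 regions), 794 bp between 1e-10 and 1e-05 (31 regions), 381 bp between 1e-05 and 0.001 (55 regions) and 273 bp above 0.001 (111 regions). On the other chromosomes the same 4 classes gave 1312, 609, 469 and 296 bp. The rank correlation of the 2 values (Spearman's rho) was 0.44 across the 205 regions and 0.51 across the 1003 others. Both values of a region come from 1 call on the same reads, so these describe the list. All 39 strong regions of III were at least 280 bp wide.

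**Figure D2:**
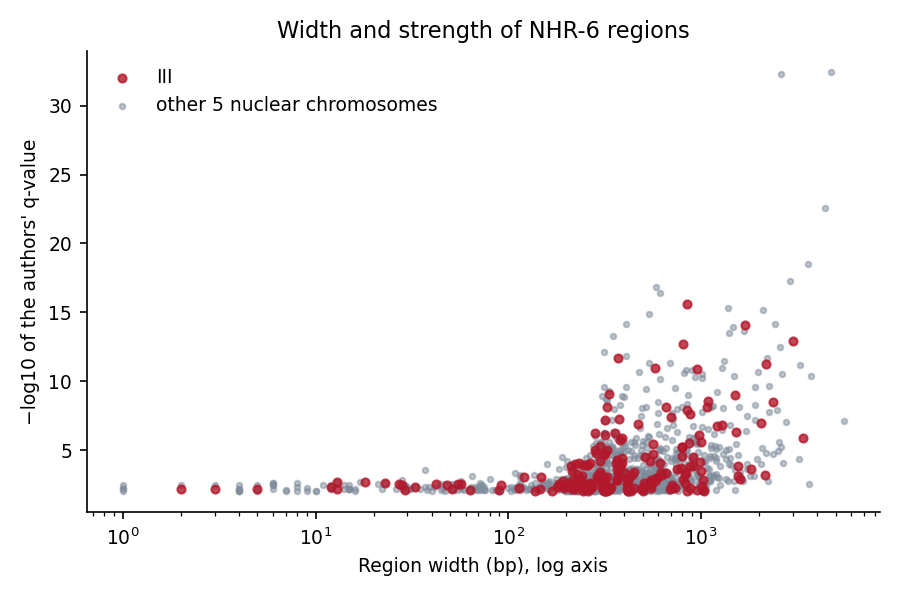
Width of each region (x axis, bp, log scale) against −log10 of the authors' q-value (y axis) for chromosome III (red, 205 regions) and the other 5 nuclear chromosomes (grey, 1003 regions). The points of III lie within the grey cloud, those under 100 bp all sit at the weak end, and the widest points of III, near 3 kb, reach neither the largest widths nor the smallest q-values of the grey points.

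At the other extreme, 20 regions of III were under 100 bp wide, 9.76% (6.06 to 14.7%), against 10.1% (8.28 to 12.1%) on the other chromosomes. Such stretches are shorter than a typical sonicated fragment. None of the 20 had q under 0.001, where all nuclear regions gave 41.3%, and their q-values ran from 0.00192 to 0.00754. Narrow regions were weak elsewhere too, with 2 of the 101 under 100 bp on the other chromosomes having q under 0.001. The 6 narrowest, which include a tie, were at 10113590 (2 bp), 5046946 (3 bp), 8268881 (5 bp), 11579405 (12 bp), 9054449 and 4017447 (13 bp each), by their starts. There were 3 of the 20 in the left part of the chromosome, 6 in the middle and 11 in the right. All listed regions of these parts numbered 54, 73 and 78. A neighbour within 5 kb was found for 6 of the 20, and in 3 of these cases, at 9054449, 10458710 and 11065274, the neighbour was a strong region.

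Chromosome III was denser in regions than the rest of the nuclear genome. Density was 14.9 regions per Mb on III (95% Poisson interval 12.9 to 17.1) and 11.7 per Mb (11.0 to 12.5) on the other 5 chromosomes, a ratio of 1.27 (exact interval 1.09 to 1.48). In an exact two-sided binomial test of the counts against length, the p adjusted over this test and the next was 0.00466. Strong regions numbered 2.83 per Mb on III (2.01 to 3.87) and 1.81 per Mb elsewhere (1.54 to 2.12), a ratio of 1.57 (1.07 to 2.24, same exact test, adjusted p = 0.0163). With q under 1e-10 the ratio was 1.35 (0.541 to 2.94) and did not pass (exact test, adjusted p = 0.393). Per protein-coding gene instead of per base, the ratios were 1.34 (1.15 to 1.56) and 1.65 (1.13 to 2.36). Against the other autosomes only, without X, they were smaller. The ratio was 1.20 (1.02 to 1.40) for all regions and 1.49 (1.01 to 2.14) for strong ones (exact test, adjusted p = 0.0388 for each). These tests take regions as independent, whereas neighbours cluster. Nor do they hold the spread between the other chromosomes, whose densities ran from 7.98 per Mb on IV to 19.9 on I. With regions within 10 kb merged, the ratio was 1.31 (1.09 to 1.55, exact test, adjusted p = 0.00598) for all regions and 1.47 (0.980 to 2.15, exact test, adjusted p = 0.0500158) for strong ones, which ends that call.

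The chromosomes fell on both sides of III, and the ratio depends on which of them it is set against. Taken 1 at a time, with p-values adjusted over the 10 tests of all and of strong regions, III was less dense than I (ratio 0.748, 0.623 to 0.896, exact binomial test, adjusted p = 0.00220). It was denser than II (1.44, 1.17 to 1.79, exact test, adjusted p = 0.00118), IV (1.86, 1.495 to 2.33, exact test, adjusted p = 1.23e-07) and X (1.68, 1.36 to 2.08, exact test, adjusted p = 5.99e-06). Against V the ratio was 1.22 (1.01 to 1.47) and did not pass (exact test, adjusted p = 0.0505). Among strong regions alone, III was denser than II (ratio 2.84, 1.53 to 5.54), IV (2.58, 1.45 to 4.72) and X (1.98, 1.17 to 3.41), with adjusted p-values of 0.00111, 0.00118 and 0.0112 in the exact test. For strong regions no difference was shown between III and I (ratio 0.837, 0.537 to 1.29, exact test, adjusted p = 0.460), or between III and V (1.31, 0.832 to 2.06, exact test, adjusted p = 0.246). Without chromosome IV among the others, the overall ratios were 1.18 for all regions and 1.42 for strong ones, and neither passed (exact test, adjusted p = 0.0544 for each). Without chromosome II the ratio for strong regions was 1.43 and did not pass (exact test, adjusted p = 0.0540).

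**Figure D3:**
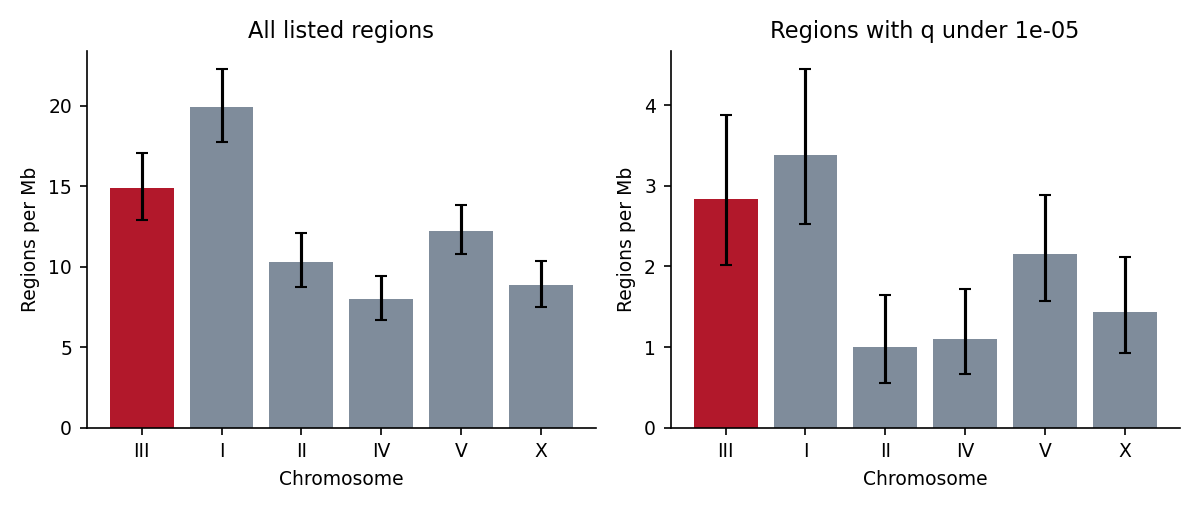
Regions per Mb on chromosome III (red) and on chromosomes I, II, IV, V and X (grey), for all listed regions (left panel) and for those with q under 1e-05 (right panel). Bars are densities and whiskers 95% Poisson intervals, which cover counting error only. In both panels III stands below I and above II, IV, V and X, with 14.9 regions per Mb on the left and 2.83 on the right.

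Along the chromosome, regions became more numerous from the left end towards the right, with a break in the ninth of 10 equal segments of 1.38 Mb. The segments held 13, 15, 18, 19, 20, 24, 25, 28, 14 and 29 regions in order from the left, where an even spread would put 20.5 in each. The left part of 3 equal ones held 54 regions, 26.3% (Clopper-Pearson interval 20.5 to 32.9%), the middle part 73, 35.6% (29.1 to 42.6%), and the right part 78, 38.0% (31.4 to 45.1%). The centres of worm autosomes are denser in conserved genes and recombine less than the arms. On the other autosomes the middle part held 42.3% (39.0 to 45.7%) of regions, with 40.3% on I, 38.1% on II, 33.3% on IV and 52.2% on V, so that III lay between IV and II. The difference was not tested, and neighbouring regions are not independent.

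Strong regions were spread evenly over the 3 parts. Each of them held 13 of the 39 strong regions, so their share among listed regions was 24.1% on the left, 17.8% in the middle and 16.7% on the right, beside 16.1% of all nuclear regions. By segment the strong regions numbered 2, 4, 4, 5, 3, 6, 3, 5, 1 and 6. The median −log10 q was 3.01 in the left part, 2.94 in the middle and 2.58 in the right. In the ninth segment, from 11017109 to 12394246, the only strong region was that at 11066664.

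**Figure D4:**
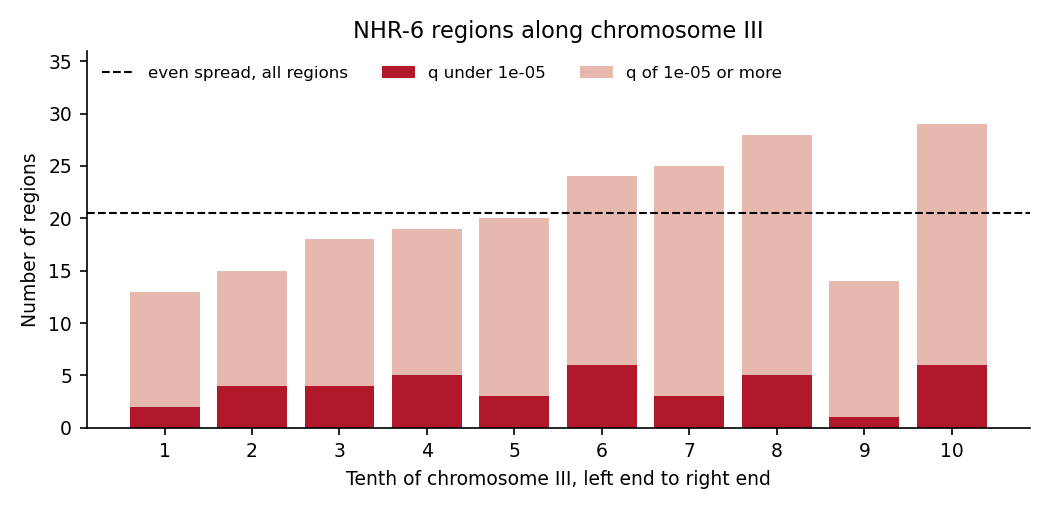
Number of regions (y axis) in each of 10 equal segments of chromosome III, numbered from the left end (x axis), split into strong regions with q under 1e-05 (dark red) and the others (light red). The dashed line marks the 20.5 regions per segment of an even spread. Totals climb from 13 in the first segment to 28 in the eighth, fall to 14 in the ninth and reach 29 in the last, while strong regions range from 1 to 6.

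The longest stretch of III with no region, 414 kb between 11836355 and 12250158, lay in that ninth segment. Others ran from 6552042 to 6946326 (394 kb), from 3068245 to 3456258 (388 kb) and from 9054461 to 9394615 (340 kb). The last began directly after the strong region of 2986 bp at 9051224 and its narrow companion. In all, 9 of the 204 gaps on III exceeded 200 kb, 4.41%, against 109 of 998 on the other 5 chromosomes, 10.9%, where the longest was 1466 kb. On the denser chromosome I the share was 3.34%. The median gap was 44.2 kb on III and 44.5 kb elsewhere. The most crowded windows of 200 kb held 10 regions each, of which 3 were strong, and both lay near the right end, starting at 12453200 and at 12555927. They overlap, share most of their regions and hold the same 3 strong ones, so they show 1 cluster. Of all nuclear regions 16.1% were strong.

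A second midpoint was found within 5 kb of 65 regions, 31.7% (Clopper-Pearson interval 25.4 to 38.6%), against 26.8% (24.1 to 29.7%) on the other chromosomes. The order depends on the distance: within 2 kb the shares were 12.2% on III and 11.96% elsewhere, and within 10 kb they were 37.6% on III and 39.9% elsewhere. The median distance to the nearest midpoint was 18.2 kb on III and 17.2 kb on the other chromosomes. Within 5 kb the share was 35.0% on I and 36.5% on V, and 14.8 to 18.1% on II, IV and X. Of the regions of III, 140 stood alone at this distance, 44 formed 22 pairs, and 21 formed 6 runs of 3 or 4 regions. The closest edges were 227 bp apart, between 63635 and 63863.

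Strong regions were 9 of the 21 members of the 6 runs, 42.9%, where 30 of the 184 other regions of III were, 16.3%, and 16.1% of all nuclear regions. On the other chromosomes the runs had 15 strong members of 87, 17.2%. By chromosome, V had 9 of 33, 27.3%, I had 6 of 39, 15.4%, and II, IV and X had none. These differences were not tested, because members of a run share their surroundings and 1 wide site can be called in pieces. The first run, from 63436 to 66804 at the left end, had regions of 200 and 367 bp on the left of the strong region of 2180 bp at 64625. The second, from 1921013 to 1926840, was the densest in strong regions, with 3 among its 4, of 796, 1073 and 844 bp, and a weaker one of 381 bp with q = 0.000185.

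The third run, from 3793836 to 3801926, ended in the strong region at 3801271, with regions of 273 and 314 bp to its left. The fourth, from 5939259 to 5944016, had no strong member. Its widest region, of 2140 bp, had the smallest q, 0.000596. The fifth, from 12607987 to 12617209, had 4 regions with widths from 391 to 2358 bp, of which 2 were strong, and began 8.87 kb to the right of the strong region at 12598311. The sixth, from 13060856 to 13070940, was the longest, at 10.1 kb, with a strong region at each end (q = 5.68e-06 on the left and 3.78e-08 on the right) and weak ones of 324 and 827 bp between them.

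**Figure D5:**
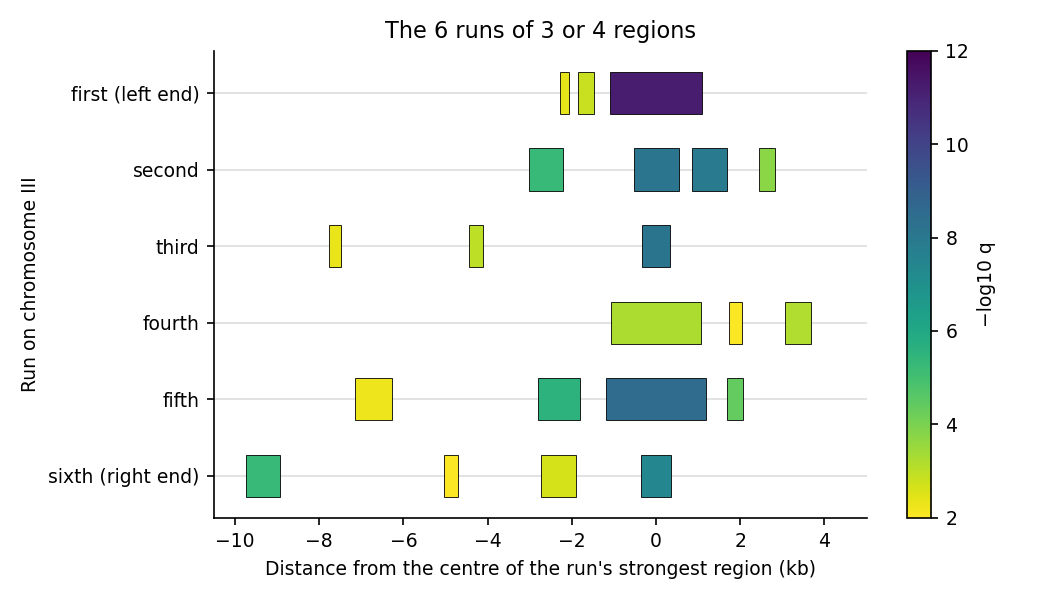
The 6 runs of 3 or 4 neighbouring regions on chromosome III, from the left end (top) to the right end (bottom), drawn to scale around the centre of each run's strongest region (x axis, kb). Each box is 1 region and its colour gives −log10 of the q-value, from yellow (weak) to dark violet (strong). The strongest box is that of the first run (q = 5.58e-12), the fourth run has pale boxes only, and the second has 3 strong boxes side by side.

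Among the 22 pairs, 7 had 1 strong member and none had 2. With 2 regions to a pair, the strong share of paired regions was close to the 16.1% of all nuclear regions. The gap between the members' edges had a median of 2016 bp and was under 1 kb in 6 pairs. The widest contrast was at 9051224, where the region of 2986 bp (q = 1.31e-13) was followed after 239 bp by one of 13 bp (q = 0.00224). At 10631960 to 10632982 a region of 1023 bp (q = 0.00754) lay 296 bp before the strong one at 10633279. Strong regions at 8445403 (2044 bp, q = 1.05e-07) and 10460209 (1205 bp, q = 1.93e-07) each had a narrower and weaker neighbour to the left, of 213 bp at a gap of 1561 bp and of 51 bp at a gap of 1448 bp. The region at 13462856 (1281 bp, q = 1.54e-07) had its neighbour on the right, 510 bp wide with q = 3.18e-05.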

How the data were processed

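Binding of NHR-6 was measured by ChIP-seq in 2 ChIP DNA and 2 input DNA libraries. The deposited values are 1 combined list of regions with a q-value each, made by the authors with PeakSeq on genome build WS180, per the file headers. How reads were aligned, which version and settings of the caller were used and how replicates were pooled is not given in the sources used here, and depth per sample is unknown. Widths, midpoints and −log10 q were computed in Python 3.11.15 (scipy 1.17.1, pandas 2.3.3, numpy 2.4.6), and figures drawn with matplotlib 3.10.9.

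Lengths of the build were not given, so a chromosome was counted from base 1 to where its last region ends. This makes III 13.8 Mb and the others 85.7 Mb. Densities were compared by the exact binomial test, two-sided, and p-values adjusted by Benjamini and Hochberg's method. Exact Poisson, Clopper-Pearson and order-statistic intervals, at 95%, cover counting error only. The density test and the median interval were tested on simulated lists of independent regions, so clustering as in the real list was not covered. Regions within 5 kb by midpoint are neighbours, and runs link 3 or more successive neighbours.

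Regions named are the 20 with the smallest q, the 5 widest, the 5 narrowest with a tie and all runs. The edges of gaps, crowded windows, pairs and closest edges were chosen after their values were seen. Members and measures were chosen with earlier results of these data known. The mitochondrial region was left out. Gene starts and the receptor element were not searched, because no annotation or sequence of the build was at hand. Protein-coding gene numbers per chromosome are from the WBcel235 table.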

Additional observations from a re-analysis of the deposited data

How the results depend on the processing

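The 2 density ratios, the shares and medians over all regions of III and the difference in neighbour share, 9 results in all, were recomputed to give 42 values. In 30 the value counted as the same, mostly because the call held or the value lay within the interval reported. The strong ratio without regions under 100 bp could not change, because no strong region was that narrow. The difference in neighbour share has no call and no interval. It counted as the same if it moved by less than the lower arm of the interval for the share on III. That took in 0.231 percentage points at 2 kb and 3.48 without regions under 100 bp. The difference in neighbour share, III minus the others, turned from 4.89 percentage points at 5 kb to -2.32 at 10 kb, and neither density ratio changed direction. Apart from the share of regions in the middle part, results by part, segment, run, pair, gap and single chromosome were not recomputed. The density ratio of III for strong regions lost its call with regions within 10 kb merged (1.47), with q under 1e-10 (1.35), without chromosome II (1.43) and without chromosome IV (1.42), and that for all regions without chromosome IV (1.18). With q under 1e-10 only 8 regions of III are left. Chromosomes II and IV had the fewest strong regions per Mb (0.998 and 1.10), and IV the fewest of all regions (7.98). Leaving out so sparse a chromosome lowers the ratio by arithmetic. Why the calls were lost was not otherwise tested. Against other chromosomes without I the ratios were larger, 1.496 for all regions and 1.92 for strong ones. Against the other autosomes only they were smaller, 1.20 and 1.49, and both calls held. The 6 values that moved did so by the construction of the alternative, except the median width, where the cause was not tested. That alternative keeps the smaller q-values, and width on III rose with −log10 q (Spearman's rho 0.44). The 6 are the central share in the middle 50% of the chromosome (53.7%), the shares with q under 1e-10 (3.90%) and under 0.001 (45.9%), the median width in the part of the list with the smaller q-values (425 bp), the share under 200 bp (15.1%) and the share with a neighbour within 2 kb (12.2%). Comparisons without II, IV or V, and with each chromosome alone, and the difference in neighbour share, were added after the data were seen. No paired analysis was possible because the list has no value per library, which also means that leaving out a replicate was not possible. Depth is unknown, so regions missed for lack of reads cannot be counted.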
